A study of Mus musculus with 18 samples.

Results

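The genes described here encode the adhesion molecules of the vessel wall and the leukocyte integrins that bind them, 10 in all: Icam1, Icam2, Vcam1, Sele, Selp, Madcam1, Itgam, Itgax, Itgb2 and Itga4. They were chosen by name from the probe set annotation, with earlier results of these data known, among 8251 genes that the array reports under 1 symbol. Together they have 15 probe sets, the sets of short oligonucleotides with which an Affymetrix array measures a transcript. Vcam1 and Itga4 have 3 probe sets each, Madcam1 has 2 and the other genes have 1.

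RNA from mouse heart was hybridised to Affymetrix U74Av2 arrays. FVB mice, the inbred strain without the transgene, were sampled at 3 weeks only, with 3 columns for females and 3 for males. Mice labelled TNFTG carry a tumour necrosis factor alpha transgene that the labels call cardiac-specific, and they were sampled at 3 weeks (3 females and 3 males), at 13 weeks (3 males) and at 40 weeks (3 females). What drives the transgene beyond that word, and how many founder lines there were, the sources used here do not give. The columns of FVB females 1 and 2 hold identical values and were counted as 1 array, which left 17 arrays. Whether each array stands for a different animal is not stated in the labels; the p-values therefore measure the spread between these arrays, which may be technical in part.

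Leukocytes leave the blood in steps. Selectins of activated endothelium (Sele and Selp, for E- and P-selectin) catch them by sugar-bearing ligands such as Selplg, and integrins then hold them firmly. The integrins of the Itgb2 family pair that beta chain with Itgal, Itgam or Itgax and bind Icam1 and Icam2, whereas Itga4 pairs with Itgb1 to bind Vcam1 or with Itgb7 to bind Madcam1, the addressin of gut and lymphoid venules. Tumour necrosis factor is a textbook inducer of Icam1, Vcam1 and Sele on cultured endothelium through the transcription factor NF-kappa-B.

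Promoter windows of 250 bases that end just before the annotated start were supplied for 7 of the 10 genes (RefSeq, GRCm38.p6). The letters GGNNTTTCC, a form of the NF-kappa-B site, were searched on both strands and occur in the windows of Icam1, Madcam1 and Selp, against 4.93% of all 32851 windows. These 3 windows are shown because they share the letters while the signals of the 3 genes, given further on, differ. They lie on the plus strand at chr9:21015690-21015939 (Icam1), chr10:79664309-79664558 (Madcam1) and chr1:164115014-164115263 (Selp), and capitals mark the matches, which read GGNNTTTCC on the other strand.
Icam1: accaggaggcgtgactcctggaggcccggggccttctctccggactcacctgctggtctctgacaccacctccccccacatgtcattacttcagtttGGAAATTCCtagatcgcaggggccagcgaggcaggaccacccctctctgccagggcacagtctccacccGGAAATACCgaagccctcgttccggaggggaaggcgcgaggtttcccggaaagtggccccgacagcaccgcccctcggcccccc
Madcam1: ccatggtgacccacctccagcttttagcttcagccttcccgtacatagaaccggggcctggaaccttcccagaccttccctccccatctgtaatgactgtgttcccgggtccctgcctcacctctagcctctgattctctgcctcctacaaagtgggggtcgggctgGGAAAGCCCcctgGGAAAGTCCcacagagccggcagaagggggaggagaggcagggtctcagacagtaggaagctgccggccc
Selp: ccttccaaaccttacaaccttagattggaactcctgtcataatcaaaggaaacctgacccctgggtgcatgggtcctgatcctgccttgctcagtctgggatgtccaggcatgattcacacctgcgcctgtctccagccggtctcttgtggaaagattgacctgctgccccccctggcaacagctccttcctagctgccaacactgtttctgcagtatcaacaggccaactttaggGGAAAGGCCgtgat
The first base of a match lies 153 and 84 bases before the start in Icam1, 83 and 70 bases before it in Madcam1, and 14 bases before it in Selp. The core letters of the myeloid factor PU.1, GAGGAA, occur in the windows of Itgam and Sele, against 23.3% of all windows. TATAAA occurs in that of Sele, against 12.4%. No match overlaps another. These are matches of letters and not measured binding. Itgam and Itgax are direct neighbours on chromosome 7.

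Several facts of the arrays bear on what follows. Tnf read 12.5 to 124.9 on the FVB arrays and 5475.5 to 11342.8 on the transgenic arrays of 3 weeks. The FVB female 1/2 array stood apart: its rank correlation with any other array was 0.775 to 0.856, and 7.33% of its signals lay at the floor (44.675, the 25th percentile of all signals, below which values were set to it). Among the remaining 4 FVB arrays it was 0.956 to 0.964. Of the 3 FVB arrays labelled male, replicates 1 and 2 carried the female transcript Xist at 1380.6 and 2705.7 and replicate 3 at 5.9, whereas the Y-linked Eif2s3y read 298.7, 67.4 and 544.9 on them. The FVB female 1/2 array read 2075.4 for Xist and 115.3 for Eif2s3y, and the transgenic arrays read 2.9 to 30.8 (females) and 347.8 to 484.4 (males) for Eif2s3y. Male 1 therefore carried both signals, and results by sex follow labels that these arrays in part go against. The ratio of 3' to 5' Actb probe set signal, a sign of RNA quality, averaged 1.71 ± 0.26 (SD, n = 5) on the FVB arrays against 1.26 ± 0.10 (SD, n = 6) on the transgenic ones of the same age, and its part in the results was not tested. In RNA from whole heart, more cells of a type and more RNA per cell cannot be told apart.

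At 3 weeks, 6 of the 10 genes were higher in transgenic than in FVB hearts: Itgb2, Itgax, Icam1, Vcam1, Madcam1 and Itga4. The question is what the transgene changes in the heart, and the test was limma on log2 signal over all 7453 probe sets that passed a filter on low signal, with Benjamini-Hochberg adjusted p-values called at 0.05. By the same test 25.8% of the 5700 genes tested were higher and 47.8% were called in either direction, so that a call by itself says little. Itgb2, Itgax, Icam1 and Vcam1 differed by at least 3 on the log2 scale, a mark set after their values were seen, as did 1.21% of the genes tested. Icam2 was tested and not called. Sele, Selp and Itgam did not pass the filter and were examined separately. The filter used the mean over all arrays, most of them transgenic. Itgb2, Itga4 and Madcam1 had FVB medians of 73.0, 56.4 and 95.1, under the 40th percentile of all signals (114.0). Their transgenic signals thus helped them to pass, and their ranks hold only among genes that passed. Their calls at 3 weeks also held without the filter.

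Icam1, the inducible ligand of the Itgb2 family, read 74.1 and 125.1 on the FVB female arrays and 124.8, 140.2 and 112.7 on the male ones. The 6 transgenic arrays of 3 weeks ran from 915.3 to 1595.1, with a median of 1305.65. Every transgenic array lay far above every FVB array; 15.3% of the genes tested had transgenic arrays wholly above the FVB arrays in this way. The log2 difference was 3.51 (SE 0.19, 95% interval 3.11 to 3.90, limma adjusted p = 4.76e-10), an 11.4-fold higher signal. By size it ranked 49 among the 5700 genes.

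Icam2, a ligand of the same integrins that resting endothelium carries all the time, gave another picture. Its signals were 200.0 and 503.3 on the FVB female arrays and 631.3, 889.1 and 506.2 on the male ones, against 498.4 to 886.6 (median 657.85) on the 6 transgenic arrays. The groups overlapped, and the FVB female 1/2 array was the lowest of all. The log2 difference of 0.54 (SE 0.22, 95% interval 0.07 to 1.0) was not called (limma adjusted p = 0.055). The call turned on single arrays: limma gave 0.87 (adjusted p = 0.00145) without FVB female 3, 0.64 (adjusted p = 0.0276) without FVB male 2 and 0.60 (adjusted p = 0.0448) without transgenic male 1. Without the 3 doubted FVB arrays (female 1/2, male 1 and male 2) it was 0.39 (adjusted p = 0.134).

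Vcam1, the ligand of Itga4 with Itgb1, was measured by 3 probe sets that all read higher in transgenic hearts. On the brightest, 92558_at, the FVB arrays read 292.3 and 169.1 (females) and 165.6, 232.9 and 184.5 (males), and the transgenic arrays read 1272.6 to 2156.6 with a median of 1765.35. The groups were wide apart. The log2 difference was 3.06 (SE 0.18, 95% interval 2.68 to 3.44, limma adjusted p = 1.68e-09), an 8.34-fold difference that ranked 66. The other probe sets gave smaller values: 1.92 (SE 0.14, adjusted p = 3e-08) on 92559_at and 1.31 (SE 0.16, adjusted p = 5.76e-06) on 92560_g_at. The size of the change in Vcam1 therefore depends on the probe set, and its direction does not.

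Madcam1 differed clearly on the brighter of its probe sets, 102680_g_at, which lay above the floor on every FVB array and higher on every transgenic array of 3 weeks. This probe set read 246.5 and 135.9 on the FVB female arrays and 71.6, 95.1 and 63.2 on the male ones. The transgenic females read 539.1, 313.8 and 503.2, and the transgenic males 1031.0, 748.6 and 891.1. The highest FVB array was again female 1/2, and it still lay below the lowest transgenic array. The log2 difference was 2.41 (SE 0.22, 95% interval 1.95 to 2.86, limma adjusted p = 2.58e-07; rank 125). The second probe set, 102679_at, overlapped between the groups and differed by 1.41 (SE 0.40, adjusted p = 0.00897).

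**Figure D1:**
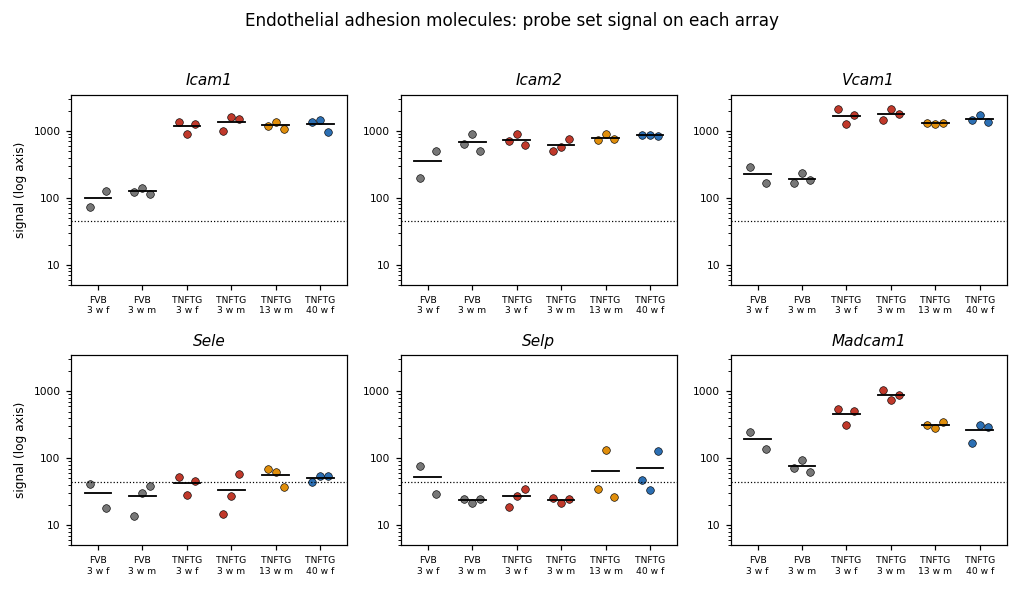
Signal of the 6 vessel-wall adhesion molecules on each array (log axis, arbitrary units of the deposited signal), by genotype, age in weeks (w) and sex (f, m); points are arrays, bars are arithmetic means and the dotted line is the floor of 44.675. Icam1, Vcam1 and Madcam1 lie higher on every transgenic array of 3 weeks than on any FVB array, Icam2 overlaps, Sele lies near or below the floor, and Selp lies below it except on 4 arrays, the highest at 135.0.

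**Figure D2:**
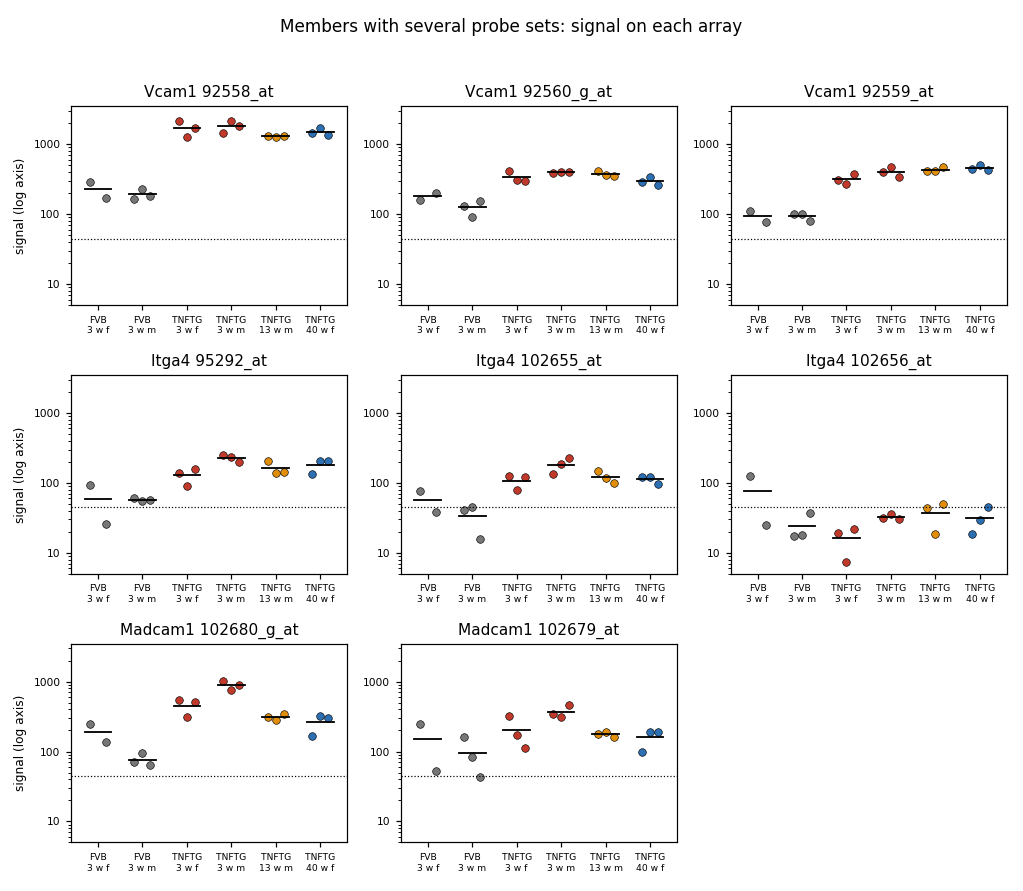
Signal on each array (log axis) of every probe set of Vcam1, Itga4 and Madcam1, laid out by group, with arithmetic means as bars and the floor of 44.675 dotted. The 3 Vcam1 probe sets all lie higher in transgenic hearts by unequal amounts, whereas Itga4 102656_at lies below the floor on all but 3 of the 17 arrays.

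The endothelial selectins were scarcely detected. Sele was below the floor on all 5 FVB arrays, where it read 14.0 to 41.9, and on 3 of the 6 transgenic arrays of 3 weeks, where it read 14.6 to 57.8 (median 37.1). Its difference in floored log2 signal was 0.11 (exact permutation test, two-sided, p = 0.24, adjusted over the 5 probe sets below the filter p = 0.40). Selp did not reach the floor on any of the 6 transgenic arrays of that age or on 4 of 5 FVB arrays, with 77.5 on the FVB female 1/2 array. Its difference was -0.16 (exact permutation p = 0.91, adjusted p = 0.91). At these signals a change in either selectin was not detectable, and no fold can be given.

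Later, 3 transgenic arrays carried Selp above the floor: 135.0 on male 2 of 13 weeks, 130.8 on female 3 of 40 weeks and 47.3 on female 1 of 40 weeks. The other arrays of those groups read 34.6 and 26.6 at 13 weeks and 33.6 at 40 weeks. Sele read 68.1, 62.2 and 37.2 at 13 weeks and 44.4, 54.3 and 54.4 at 40 weeks, near or below the floor, and was not tested there. Since platelets also hold P-selectin, the 5 platelet genes on the array (Gp1bb, Gp5, Gp9, Itgb3 and Pf4) were summed. The sum was 92.4 to 256.4 at 13 weeks and 132.4 to 180.0 at 40 weeks, against 132.1 to 253.2 in transgenic hearts of 3 weeks. It was 92.4 on the array with the highest Selp. On the FVB female 1/2 array the platelet sum was 1080.3, against 221.4 to 263.9 on the other FVB arrays. That array also read high in other lists of mostly dim genes. Its T and NK cell sum was 3071.3, against 1350.2 to 1998.1 on the other FVB arrays. The 5 platelet genes did not pass the filter on low signal, so their sums say little. The part of platelets in the Selp signal was not tested.

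Among the integrins, Itgb2, the beta chain of the leukocyte family, differed most. The FVB arrays read 66.4 and 97.5 (females) and 14.2, 79.9 and 73.0 (males), and the transgenic arrays of 3 weeks read 1023.9 to 1877.3, with a median of 1164.7. No array of either group came near the other group. Itgb2 differed by 4.17 (SE 0.20, 95% interval 3.74 to 4.60, limma adjusted p = 1.53e-10) on the log2 scale, which ranked 22 among 5700 genes. Since 1 FVB array, male 1, was set to the floor, this value understates the difference.

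Itgax, the integrin alpha chain known as CD11c, which dendritic cells and many macrophages carry, was also far higher in transgenic hearts. It read 99.9 and 179.5 on the FVB female arrays, 169.3, 130.9 and 168.3 on the male ones, and 1552.7 to 1968.9 (median 1832.9) on the transgenic ones. The transgenic arrays lay close together and far above the FVB arrays. The log2 difference was 3.63 (SE 0.15, 95% interval 3.30 to 3.95, limma adjusted p = 4.29e-11; rank 39), a 12.3-fold difference.

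Itgam, the alpha chain of Mac-1 on macrophages, monocytes and neutrophils, was dim. It read 54.9 and 38.6 on the FVB female arrays and 20.7, 16 and 12.2 on the male ones, so that 4 of 5 arrays were at the floor. The transgenic arrays read 89.0 to 254.6 (median 110.6), all above the highest FVB array. The difference in floored log2 signal was 1.44 (exact permutation test, two-sided, p = 0.0043, the smallest that 6 against 5 arrays can give; adjusted p = 0.011), a lower limit of its size. With the floor at the 40th percentile, 114.0, it shrank to 0.27 (exact permutation adjusted p = 0.36).

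Itga4, the alpha chain that binds Vcam1 and Madcam1, rose by less. On 95292_at the FVB arrays read 93.1 and 25.8 (females) and 61.4, 54.3 and 56.4 (males). The transgenic arrays read 91.4 to 249.1, with a median of 179.9. The FVB female 1/2 array lay just above the lowest transgenic array, female 2, and the groups were otherwise apart. The log2 difference was 1.48 (SE 0.21, 95% interval 1.03 to 1.92, limma adjusted p = 3.23e-05; rank 350), with FVB female 3 at the floor.

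The remaining Itga4 probe sets did not pass the filter. On 102655_at the FVB arrays read 15.8 to 76.5 and the transgenic arrays 79.4 to 227.8, with no overlap and a difference of 1.46 (exact permutation p = 0.0043, adjusted p = 0.011). With the floor at 114.0 this was 0.36 (exact permutation adjusted p = 0.078). On 102656_at all 6 transgenic arrays and 4 of 5 FVB arrays were below the floor, and nothing could be read from it.

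**Figure D3:**
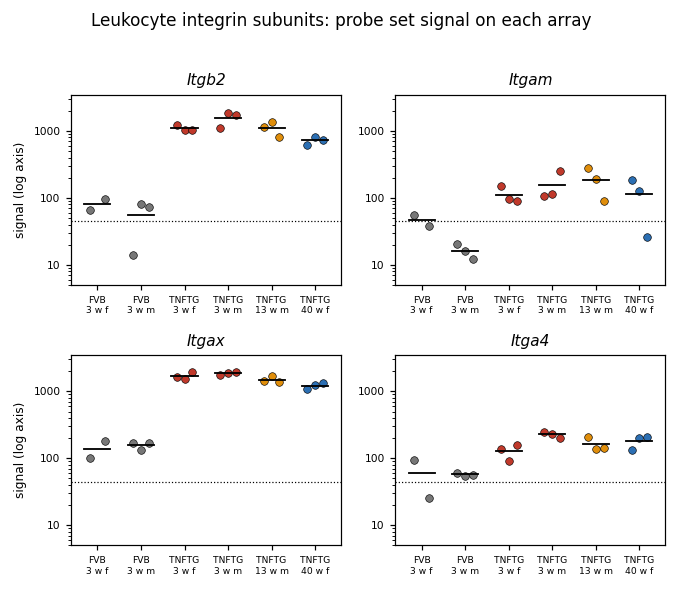
Signal of the 4 integrin subunits on each array (log axis), by genotype, age in weeks (w) and sex (f, m); points are arrays, bars are arithmetic means and the dotted line is the floor of 44.675. Itgb2 and Itgax lie above 1000 on every transgenic array of 3 weeks, while Itgam stays at or below 254.6 and Itga4 at or below 249.1.

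The genes did not change by equal amounts. Within each array the log2 signal of a partner was subtracted from that of the other, and the differences were compared between genotypes at 3 weeks by exact two-sided permutation over arrays, adjusted over the 4 pairs that could be tested. Icam1 rose more than Icam2 by 3.04 (p = 0.0043, exact; adjusted p = 0.0058). Itgb2 rose more than Itga4 by 2.71 (p = 0.0043, exact; adjusted p = 0.0058) and by 2.19 when the 3 doubted FVB arrays were left out (exact p = 0.071, adjusted p = 0.11). Icam1 less Icam2 was then 3.0 with the same p-values, and 0.071 is the smallest p that 6 against 2 arrays can give. Itgam less Itgax gave -2.17, but with 4 of 5 FVB arrays at the floor the gain of Itgam is only a lower limit, so the order of their gains cannot be read from it. For Vcam1 less Icam1 the value was -0.39 (p = 0.15, exact), and it was -0.11 without the FVB female 1/2 array. This pair used Vcam1 92558_at only, and the other Vcam1 probe sets, given above, differed by less between the genotypes. Sele and Selp could not be compared because each was at the floor on all arrays of a group.

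By labelled sex, 7 of the 10 genes were called higher in females and 6 in males, where 20.3% and 17.5% of the genes tested were called higher. Icam1 differed by 3.59 (SE 0.28) in females and 3.42 (SE 0.25) in males, Vcam1 by 2.91 (SE 0.26) and 3.21 (SE 0.24), and Itgax by 3.66 (SE 0.23) and 3.60 (SE 0.21). Itgb2 differed by 3.76 (SE 0.30) in females and 4.58 (SE 0.27) in males. The male effect less the female effect ran from -0.17 for Icam1 (95% interval -0.95 to 0.62) to 0.82 for Itgb2 (95% interval -0.03 to 1.68) among these genes, and none of these differences was called.

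Madcam1 differed by 1.27 in females (SE 0.32, limma adjusted p = 0.00777) and by 3.55 in males (SE 0.29, limma adjusted p = 1.63e-07). The male effect less the female effect was 2.28 (SE 0.43, 95% interval 1.37 to 3.20) and was not called (limma adjusted p = 0.0654). Icam2 differed by 1.19 in females (SE 0.33, limma adjusted p = 0.0115) and by -0.12 in males (SE 0.29, adjusted p = 0.793), and the difference of these effects, -1.32 (SE 0.44), was not called either (limma adjusted p = 0.189). For Itga4 the effects were 0.96 in females and 1.99 in males, with a difference of 1.02 (SE 0.42, adjusted p = 0.248).

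Over all probe sets limma called 0 sex differences, with 1228 of 7453 at an unadjusted p below 0.05. These values depended on which FVB female array was kept. The transgenic arrays also differed by sex: Itga4 read 91.4 to 159.6 in transgenic females and 200.2 to 249.1 in transgenic males. Without FVB female 3, which leaves the array that stood apart as the only FVB female, limma called 1490 probe sets, among them Madcam1 (2.71, adjusted p = 0.00182), Icam2 (-1.98, adjusted p = 0.00324) and Itga4 (1.55, adjusted p = 0.0154). Without FVB female 1/2 it called 0, and Madcam1 was 1.85 (adjusted p = 0.271). In females alone, leaving out FVB female 1/2 ended the call of Icam2 (0.53, limma adjusted p = 0.243), and leaving out FVB female 3 ended those of Madcam1 (0.84, adjusted p = 0.0832) and Itga4 (0.44, adjusted p = 0.302). The Itga4 call in females also ended without transgenic female 1 (0.91, adjusted p = 0.0699) or female 3 (0.79, adjusted p = 0.0925), and with the floor at the 40th percentile the Itga4 effect was only 0.25 (limma adjusted p = 0.423). The Madcam1 call in females ended with the mean over both probe sets (0.98, limma adjusted p = 0.0733). Both calls in females ended with array weights (Madcam1 1.34, adjusted p = 0.0826; Itga4 1.08, adjusted p = 0.13) and with the compared groups fitted alone (adjusted p = 0.063 and 0.132).

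**Figure D4:**
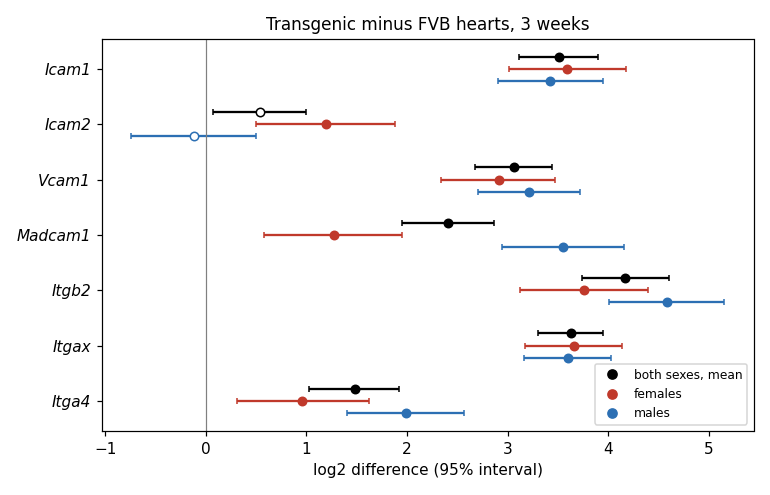
Log2 difference in signal between transgenic and FVB hearts of 3 weeks for the 7 genes that passed the filter, as the mean over both sexes and within each labelled sex; bars are 95% intervals from limma, and filled points were called at an adjusted p of 0.05. Icam2 lies nearest to 0 at 0.54, Itgb2 is highest at 4.17, and the intervals of Madcam1 for females (0.58 to 1.95) and males (2.94 to 4.16) do not meet. The male effect of Madcam1 less the female effect, 2.28, was nonetheless not called (limma adjusted p = 0.0654).

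With age the transgenic hearts differed in few of these genes, and no FVB hearts of the later ages were analysed here. From 3 to 13 weeks in males, 1 of the 10 genes was called, Madcam1, where 0.561% of the genes tested were. It read 1031.0, 748.6 and 891.1 at 3 weeks and 310.6, 282.3 and 348.7 at 13 weeks, so that every older array lay below every younger one; the 2 ages did not overlap, in either direction, in 16.5% of the genes tested. The log2 difference was -1.50 (SE 0.29, 95% interval -2.11 to -0.89, limma adjusted p = 0.0214). The 13-week signals were nonetheless higher than the 63.2 to 95.1 of FVB males of 3 weeks.

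This call was fragile. It ended when any of the 6 male arrays of either age was left out (-1.39 to -1.62, limma adjusted p = 0.0636 to 0.116), without the filter (adjusted p = 0.0663), and with the mean over both probe sets (-1.28, adjusted p = 0.16). The second probe set, 102679_at, gave -1.06 (SE 0.53, limma adjusted p = 0.631).

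The other genes were not called at 13 weeks. Icam1 read 1193.4, 1357.8 and 1072.9 at 13 weeks, within the range of the 3-week males (996.9, 1595.1 and 1534.5), and differed by -0.16 (SE 0.25, adjusted p = 0.959). Vcam1 read 1321.7, 1287.6 and 1319.5 against 1451.3, 2156.6 and 1819.8, lower on every array but not called (-0.45, SE 0.24, adjusted p = 0.675). Itgax and Itgb2 differed by -0.34 (SE 0.21) and -0.49 (SE 0.27).

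From 3 to 40 weeks in females 0 of the 10 genes were called, where 0.596% of the genes tested were and the ages did not overlap in 17.4%. Icam1 read 1360.7, 1441.2 and 966.9 at 40 weeks against 1341.8, 915.3 and 1269.5 at 3 weeks, a difference of 0.09 (SE 0.25, 95% interval -0.43 to 0.62). Itgb2 read 619.5, 811.9 and 744.3 against 1226.0, 1023.9 and 1031.2, lower on every array and not called (-0.60, SE 0.27, adjusted p = 0.521). Itgax was likewise lower on every array, at 1092.3, 1230.3 and 1313.5 against 1611.3, 1552.7 and 1920.3 (-0.48, SE 0.21, adjusted p = 0.476). Madcam1 read 167.9, 317.4 and 297.1 against 539.1, 313.8 and 503.2 (-0.81, SE 0.29, adjusted p = 0.334). The ratio of 3' to 5' Actb signal was 1.59, 1.39 and 1.77 on the arrays of 40 weeks. On the transgenic females of 3 weeks it was 1.25, 1.44 and 1.28, and its part in these age changes was not tested. When arrays were given weights that limma estimated from their spread, it called Madcam1 (-0.63, adjusted p = 0.0481) and Itgax (-0.52, adjusted p = 0.0175). That fit called 803 probe sets at 40 weeks, against 50 in the main fit. Female 2 of 40 weeks had a weight of 6.544, and the others of that age 0.625 and 0.583, so these calls rest largely on 1 array.

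The later ages were sampled in different sexes, so age and sex cannot be told apart between them. The difference between both age changes was called for 0 of 7453 probe sets, with 214 at an unadjusted p below 0.05. For Madcam1 it was 0.69 (SE 0.41) and for Itga4 1.01 (SE 0.39), with a limma adjusted p of 1.0 for each. Itgam read 280.5, 191.7 and 88.6 at 13 weeks and 186.4, 127.6 and 26.1 at 40 weeks, a wide spread around its 3-week levels; 3 against 3 arrays cannot give an exact p below 0.10, so it was not tested.

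**Figure D5:**
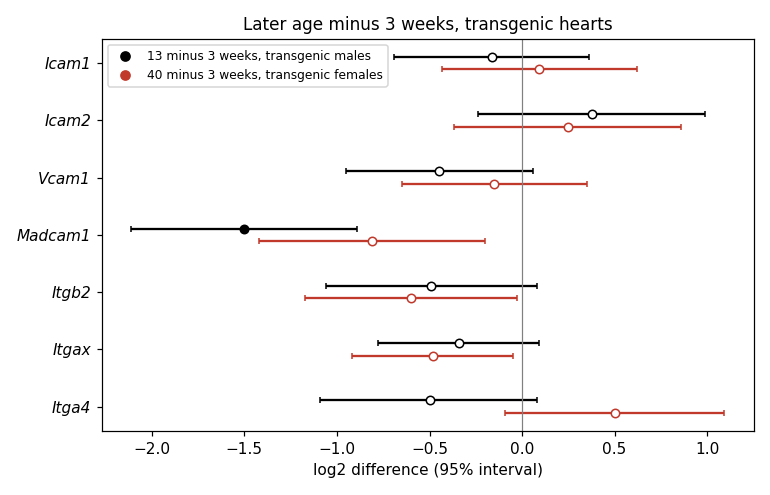
Log2 difference in signal between transgenic hearts of a later age and those of 3 weeks for the 7 genes that passed the filter, with 95% intervals from limma; males of 13 weeks are black and females of 40 weeks red. Madcam1 in males, at -1.50, is the filled point, which marks a call at an adjusted p of 0.05.

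Other genes of leukocyte adhesion were read from lists, beside the median log2 difference of 0.01 over all genes tested. Counts at 3 weeks in these and the following lists stand beside 25.8% higher and 47.8% called in either direction among all genes tested. Of 6 other leukocyte integrin genes tested at 3 weeks, 4 were higher, 0 lower and 2 not called, with a median of 0.82. Itgb7, which joins Itga4 in the receptor of Madcam1, read 135.2 to 310.8 on the FVB arrays and 522.8 to 1233.8 on the transgenic ones, a rise of 1.78 (SE 0.22, limma adjusted p = 8.74e-06). Itgal, the alpha chain of LFA-1, rose by 1.05 (SE 0.21, adjusted p = 0.000715) and Itgav by 0.67 (SE 0.13, adjusted p = 0.00089). Itgb1, the partner of Itga4 for Vcam1 and a subunit of many tissues, read 11049.7 to 13007.8 and 8349.9 to 11594.5 and was not called (-0.20, SE 0.14, adjusted p = 0.252).

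Genes that act on integrin activation inside the cell, whether they promote or restrain it, were higher in 11 of 17 cases and lower in 1, with a median of 0.96. They included Apbb1ip, the Rap1 effector that recruits talin (3.46, SE 0.21), Cytip (2.64, SE 0.20) and Fermt3, the kindlin of blood cells (1.37, SE 0.13), while Fermt2, the kindlin of other tissues, was not called (-0.10, SE 0.21). Among 13 selectin ligands and the enzymes that build them, 5 were higher, 3 lower and 5 not called (median -0.05). Selplg, the main ligand of P-selectin on leukocytes, rose by 2.37 (SE 0.14), Cd44 by 2.33 (SE 0.34) and Cd24a by 0.95 (SE 0.20). The enzyme Fut7, which fucosylates such ligands, was not called (-0.29, SE 0.24).

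Junction and transmigration genes went both ways: 6 of 19 were higher, 3 lower and 10 not called (median -0.01), shares near the 25.8% higher and 47.8% called among all genes tested. Sirpa, a myeloid receptor, rose by 3.02 (SE 0.23), Thy1 by 1.74 (SE 0.20) and Cd47, the ligand of Sirpa, by 1.29 (SE 0.16). Pecam1, an adhesion molecule of endothelial junctions, fell by 1.16 (SE 0.41, limma adjusted p = 0.030), while Cdh5, the cadherin of the same junctions, was not called (0.27, SE 0.15, adjusted p = 0.134). A further list held 8 tested adhesion genes, all of the immunoglobulin type except Aoc3. Of these 8, 3 were higher (Cd48, Mcam and Alcam, by 3.66, 1.12 and 1.02) and 3 lower (Ncam1, Ceacam1 and Aoc3), with a median of 0.12.

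Markers of the cells that carry these molecules moved unequally. All 13 pan-leukocyte genes tested, of 15 on the array, were higher at 3 weeks (median 2.68), among them Ptprc, the common leukocyte antigen (4.28, SE 0.23). Their summed signal was 2763.8 to 4399.1 in FVB and 19501.8 to 28689.3 in transgenic hearts. Macrophage and monocyte genes were higher in 14 of 17 cases, lower in 1 and not called in 2 (median 2.09). Their sums were 7792.2 to 10179.9 in FVB and 36536.0 to 43905.2 in transgenic hearts, and Cd68 rose by 2.85 (SE 0.19). Dendritic cell genes were higher in 8 of the 9 tested, of 12 on the array, among them Irf8 (2.69, SE 0.17) and Ly75 (2.49, SE 0.21). The part of leukocyte number in the values of Itgb2, Itgax, Itgam and Itga4 was not tested.

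Endothelial genes showed no such shift as a list: 5 of 25 were higher, 5 lower and 15 not called (median 0.08). These shares lie near the 25.8% higher and 47.8% called among all genes tested. The sums of the endothelial genes overlapped, at 21538.4 to 38521.3 in FVB and 27394.3 to 33225.5 in transgenic hearts. The lowest FVB sum was that of the female 1/2 array; the other 4 FVB arrays ran from 32027.2 to 38521.3, above all transgenic arrays of 3 weeks but male 3 (33225.5). Procr rose by 1.78 (SE 0.15), Aqp1 fell by 3.31 (SE 0.28) and Flt1 fell by 1.13 (SE 0.15). Icam1 and Vcam1 can also be made by other cells than endothelium, and the source of their signal was not tested.

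Lymphocyte and granulocyte lists were mixed. Of 19 T and NK cell genes on the array 10 were tested, with 8 higher, 1 lower and 1 not called. Of 15 B cell genes 11 were tested and 3 were higher, near the 25.8% of all genes tested. Of 20 neutrophil and mast cell genes 8 were tested, with 4 higher and 3 lower. The filter used the mean over all 17 arrays, 12 of them transgenic, so genes higher in transgenic hearts passed it more readily. This can raise the share of higher genes among those tested in any list. Of 9 lymphoid organ genes on the array 5 were tested, with 3 higher and 1 lower. The higher ones were Madcam1 itself, Cd1d1 (1.16, SE 0.22) and Cxcl13, a chemokine of lymphoid follicles (5.23, SE 0.21). Rag1 was the lower one, with a signal of 1114.4 on the FVB female 1/2 array and 134.1 to 259.2 on the other FVB arrays. Cardiomyocyte genes were lower in 13 of 16 cases, higher in 2 and not called in 1 (median -0.94). Smooth muscle genes were higher in 3 and lower in 4 of 11. Cr2, a B cell and follicular gene, was at the floor on all arrays. With age, called genes in these lists were few: Gzmb (-2.59, SE 0.44) and Madcam1 lower and Jchain, of plasma cells, higher (2.79, SE 0.39) at 13 weeks, and Jchain higher (3.74, SE 0.39) and Acta2 lower (-0.93, SE 0.19) at 40 weeks.

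Across the 12 transgenic arrays, the gene whose log2 signal followed Itgb2 most closely was Ptpn9 (Pearson r = 0.911), with the macrophage gene Cd68 next (0.898). Madcam1 was followed most closely by Rac2, a GTPase of leukocytes (0.927), Itgax by H2-M2 (0.924), Itga4 by Clk1 (0.929) and Icam1 by Cavin3, a protein of caveolae (0.917). Icam2 was followed most closely by Pygm, the glycogen phosphorylase of muscle (0.948), and Vcam1 by Dcaf13 (0.902). These arrays share a tissue and fall into groups of sex and age, and the highest of 5700 genes is high by selection, so the values are a description.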

How the data were processed

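Affymetrix U74Av2 signals of mouse heart were used as deposited. The authors deposited 1 intensity value per probe set on a linear scale, already scaled to a common level, as the deposited values show; which software and background correction they used is not given in the sources used here. Trimmed means (2nd to 98th percentile) of the 17 distinct arrays were 499.2 to 499.9, so no scaling was added. Signals under 44.675 (25th percentile) were set to that floor before log2. Without 66 control probe sets, the brightest 60% of 12422 were tested (7453). limma 3.58.1 in R 4.3.3 fitted a mean for each of 6 groups, with 11 residual degrees of freedom; the script was tested on simulated data. The 3-week effect weights the sexes equally. Probe sets below the filter and pairs of genes were compared by exact permutation over arrays in Python with SciPy 1.17.1. The number of arrays limits the precision.

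Symbols came from the platform annotation, which can be old; 10821 of 10833 single symbols are in the current RefSeq table. A gene is represented by its brightest probe set. From each other list up to 3 called genes of smallest p were named by rule, plus genes always looked up; Fermt2, Fut7, Rag1, Ncam1, Ceacam1 and Aoc3 were named after their values were seen. The genes and lists were chosen with earlier results of these data known. Promoter windows are RefSeq's (GRCm38.p6). Alternatives covered scaling, floor, filter, variance model, array weights, samples in the fit, probe set choice, a replicate block and left-out arrays.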

Additional observations from a re-analysis of the deposited data

How the results depend on the processing

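At 3 weeks the calls of Icam1, Vcam1, Madcam1, Itgax, Itgb2 and Itga4 held under every alternative in which they were tested. Leaving out 1 array gave 6 to 7 of the genes called and 3032 to 3814 probe sets, and in males 6 genes and 1643 to 2540 probe sets. Icam2 was called with the higher floor (adjusted p = 0.0476), the brightest 40% (0.0425), a trended and robust variance (0.0445) and the mean over probe sets (0.0499). In females 4 genes were called with array weights (699 probe sets) and with the compared groups alone (1013); without the 3 doubted FVB arrays 1361 probe sets were called, and without single arrays 5 to 7 genes and 1446 to 3083 probe sets. Sex differences numbered 6 with quantile normalisation, 17 with a common median, 3 with the higher floor and 91 without the filter, where 1 gene, Madcam1, was called (adjusted p = 0.0424); without single arrays they numbered 0 to 1490 probe sets and 0 to 3 genes. At 13 weeks 61 probe sets were called with the higher floor, 80 with array weights, 61 without the doubted arrays and 14 to 68 without single arrays. There 0 of the genes were called without the filter and with the mean over probe sets, and 0 to 1 without single arrays. With the brightest 40% Madcam1 was not among the probe sets tested, and 0 of the genes were called. At 40 weeks 78 were called with the higher floor, 77 without the filter, 30 with the brightest 40%, 803 with array weights (2 genes) and 28 to 67 without single arrays. Array weights called 1 difference between the age changes. The cause was not tested.

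Values near 0 changed sign without a call. In sex difference, Vcam1 was -0.04 with a common median, Icam1 0.14 and Itgax 0.04 with the higher floor, Itgax 0.00 with log2 of signal plus 50, and Icam1 0.37, Itgax 0.25 and Vcam1 -0.03 without the doubted arrays. Icam2 in males was 0.25 without those arrays, and Vcam1 at 40 weeks 0.07 with the mean over probe sets. Without single arrays the sex difference was -0.54 to 0.21 for Icam1, -0.09 to 0.70 for Vcam1 and -0.48 to 0.36 for Itgax, and the male effect of Icam2 -0.31 to 0.10. The 40-week change was -0.34 to 0.02 for Vcam1 and -0.08 to 0.27 for Icam1, and the difference of age changes -0.30 to 0.01 for Icam2 and -0.31 to 0.13 for Itgb2.

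The replicate numbers of the titles were not taken to pair the arrays: deviations correlated at -0.34 to 0.47 (median 0.05) between same-numbered arrays and at -0.38 to 0.33 (median 0.01) between others. That 9 of 17 arrays correlated best with their own number is a hint from the data, not the design. A fit with the replicate block called 3328 probe sets at 3 weeks, 37 at 13 weeks and 47 at 40 weeks, and changed no call of these genes. Signals at the floor limit what can be said of Sele, Selp, Itgam and the dimmer Itga4 probe sets.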
